A study of Mus musculus with 40 samples.

Results

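The Ifi200 genes are a family of related genes clustered on mouse chromosome 1. The 7 described here are Ifi202b, Ifi203, Ifi204, Ifi205, Mnda, Aim2 and Pyhin1, out of 22865 genes with an expression value, each found by its symbol and taken as the transcript with the highest mean RNA-Seq level. All 7 have 1 copy in the genome according to the authors' table. Around their transcription starts, within 50 kb on either side, lie 505 of the 1021074 peaks and regions of the 20 ChIP-Seq lists.

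The cells were macrophages drawn into the peritoneum with thioglycollate broth, from the inbred strains BALBc/J and C57BL6/J, plated overnight and washed free of cells that did not adhere. They received medium with Kdo2-lipid A (KLA) at 100 ng/ml, a lipid A glycolipid that bacteria carry in their outer membrane and that activates Toll-like receptor 4, or fresh medium alone (no treatment). KLA was given for 1 hr in all assays and also for 4 hr in RNA-Seq. RNA-Seq measured polyadenylated RNA in 3 libraries per strain (no treatment, 1 hr and 4 hr), and GRO-Seq measured RNA still being made by the polymerase in 2 per strain (KLA and no treatment). ChIP-Seq gave 1 list per strain and treatment for the macrophage transcription factors PU.1 and C/EBPa and for 2 histone marks of promoters and enhancers, H3K4me2 and H3K27Ac. For the NF-kB subunit p65 it gave 2 replicate lists per strain, all after KLA.

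Ifi200 proteins, also called PYHIN or HIN-200 proteins, are built from a HIN domain that binds DNA and, in most members, a pyrin domain that recruits other proteins. AIM2 is a receptor for DNA in the cytosol that assembles an inflammasome through the adaptor ASC, and p204, the Ifi204 product, is linked to the STING pathway of interferon induction. p202, made from Ifi202b, has HIN domains but no pyrin domain and interferes with AIM2 in mouse cells. The family takes its name from its induction by interferon.

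In the mm9 build used by the authors, the 7 starts span 611.2 kb of chromosome 1. Aim2 (175350734 to 175396167) and Pyhin1 (175560989 to 175578059) lie on the plus strand. Ifi204 (175677424 to 175697050), Mnda (175826485 to 175843053), Ifi203 (175850533 to 175872623), Ifi202b (175892699 to 175912975) and Ifi205 (175942128 to 175961886) follow in that order on the minus strand. Ifi202b and Ifi203 each have 2 transcripts in the table, and those of Ifi202b hold the same tags. The members resemble each other in sequence, and the sources used here do not say how tags matching several members were placed. Part of a tag count may therefore belong to a relative. Tags of both strains were aligned to mm9, so BALBc/J tags that differ from this build may be lost or misplaced. The copy number in BALBc/J is not shown. The part of such losses in the strain differences below, in tags or in peaks, was not tested.

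Promoters of 6 of the 7 members, all but Ifi204, were found by gene ID in RefSeq (build GRCm38.p6, where Mnda is named Ifi211 and Pyhin1 is named Ifi209). Each covers 250 bases before the start and 50 from the start on. The core of the interferon response element, GAAANNGAA on either strand, was found in the promoters of 3 members, and it occurs in 8.6% of all 32851 promoters of the table. These windows are shown because their letters look alike. Capitals mark the core, and all 3 lie on the minus strand of chromosome 1.
Ifi205: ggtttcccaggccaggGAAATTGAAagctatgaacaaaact
Mnda: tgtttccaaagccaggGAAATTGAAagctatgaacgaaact
Ifi203: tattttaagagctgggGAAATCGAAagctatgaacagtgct
The first base of the core stands 134 bases before the start in Ifi205 (window 174031865 to 174031905), 37 before it in Mnda (173913059 to 173913099) and 35 before it in Ifi203, in the second of its 2 listed promoters (173942503 to 173942543). The Ifi205 and Mnda windows share 37 of 41 bases, the Ifi203 and Mnda windows 30 and the Ifi203 and Ifi205 windows 28. Ifi205 has a further match on the opposite strand, 24 bases after its start.

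The promoters of Aim2, Ifi202b and Pyhin1 had no match to that core. Pyhin1 rose by 4.46 ± 0.21 on the log2 scale after 4 hr of KLA. Those of Aim2 and Ifi202b are printed whole because Aim2 stood apart from the family in its response and Ifi202b in its strain difference. In Aim2 (chr1:173420354-173420653, plus strand) the capitals mark a PU.1 motif, GAGGAAGT, 113 bases before the start, which occurs in 3.2% of promoters on either strand. In Ifi202b (chr1:173982795-173983094, minus strand) they mark a STAT motif, TTCNNNGAA, 148 bases before the start, which occurs in 8.3%.
Aim2: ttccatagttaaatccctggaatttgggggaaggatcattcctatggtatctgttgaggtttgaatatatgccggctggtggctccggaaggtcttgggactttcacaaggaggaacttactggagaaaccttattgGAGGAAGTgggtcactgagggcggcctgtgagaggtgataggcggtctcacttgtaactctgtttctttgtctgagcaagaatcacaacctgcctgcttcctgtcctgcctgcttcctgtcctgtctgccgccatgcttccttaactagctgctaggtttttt
Ifi202b: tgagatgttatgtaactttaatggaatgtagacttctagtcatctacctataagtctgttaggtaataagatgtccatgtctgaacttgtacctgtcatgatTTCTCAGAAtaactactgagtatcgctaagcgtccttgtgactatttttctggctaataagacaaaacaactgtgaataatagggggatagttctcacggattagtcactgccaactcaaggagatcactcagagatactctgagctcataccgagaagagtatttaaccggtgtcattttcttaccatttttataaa
The NF-kB motif GGANTTNCC, present in 3.9% of promoters, was in none of the members' promoters. The C/EBP motif TTGCNNAA, present in 10.8%, was in that of Pyhin1, 6 bases after the start on the opposite strand. These letters come from the reference assembly, which is of C57BL/6J, so the BALBc/J sequence is not shown. A match is a description of the letters only.

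RNA-Seq libraries held 17.0 to 20.3 M tags, GRO-Seq libraries 39.4 to 48.3 M and ChIP-Seq libraries 7.10 to 14.4 M, where 10 M stands for 1e7. Levels are given as tags in exons per 10 M tags of the library. They are not corrected for transcript length unless a value is said to be per kb, and intervals beside them are 95% Poisson intervals that cover counting error only. Whether libraries came from separate animals is not given, so the p-values below measure only how these libraries vary, in part perhaps for technical reasons, and fewer cells of a type cannot be told apart from less RNA per cell. The 6 macrophage markers, among them Cd68 and Lyz2, summed to 75480 to 101800 tags per 10 M in BALBc/J and 74250 to 81080 in C57BL6/J. Of the other cell types, the 5 mesothelial and fibroblast markers summed to 690.1 to 1199 in BALBc/J and 415.5 to 716.7 in C57BL6/J, the 4 neutrophil markers in the table to 78.5 to 150.1 and 133 to 340.5, and T and NK cell, B cell, dendritic cell, and mast cell and eosinophil lists each stayed at or under 241 in all libraries.

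After 4 hr of KLA all 7 genes were higher than without treatment, and after 1 hr none had passed the test. The rise ran from 1.25 ± 0.19 on the log2 scale for Aim2 to 6.22 ± 0.30 for Ifi205 (fitted change ± SE). A gene was called when limma fitted a change of at least 1 with an adjusted p below 0.05, with both strains standing in as replicates. By this rule 8.10% of the 10692 genes tested were called higher and 21.3% lower at 4 hr. The median of the 7 changes was 4.17, against -0.47 over all genes tested.

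Aim2, the cytosolic DNA receptor, was already present without treatment and rose least. It had 291.8, 313 and 603 tags per 10 M in BALBc/J without treatment, after 1 hr and after 4 hr, and 280.3, 345 and 797 in C57BL6/J. Both strains started at about the same level and were highest at 4 hr. The change at 4 hr was 1.25 ± 0.19 (limma adjusted p = 0.00107), and the change at 1 hr was 0.19 ± 0.19 (limma adjusted p = 0.574).

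Ifi204, whose product p204 is linked in mouse to DNA-induced interferon, rose about as much as the family median. BALBc/J had 143, 266 and 3559.9 tags per 10 M over the 3 times, and C57BL6/J had 283, 428 and 4077. In each strain the 4 hr library stood far above the other two, and BALBc/J lay below C57BL6/J at every time. The 4 hr change was 4.17 ± 0.21 (limma adjusted p = 5.34e-06).

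Ifi205, a nuclear member, was low without treatment and rose most. It had 25.0, 50.2 and 1706 tags per 10 M in BALBc/J, against 23.6, 52.1 and 3811 in C57BL6/J. The strains had overlapping counting intervals without treatment and after 1 hr, and separated only at 4 hr. The 4 hr tags were 68.3-fold those without treatment in BALBc/J (95% counting interval 51.4 to 92.9) and 161.8-fold in C57BL6/J (118.7 to 226.6). The fitted change was 6.22 ± 0.30 (limma adjusted p = 4.18e-06).

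Mnda, which shares its symbol with the human myeloid nuclear differentiation antigen, differed between the strains at all 3 times. BALBc/J had 4.68, 9.72 and 357 tags per 10 M, where the first rests on 9 tags, and C57BL6/J had 28.3, 101.1 and 843. BALBc/J was lower at each time and both strains were highest at 4 hr. The 4 hr change was 4.56 ± 0.31 (limma adjusted p = 2.01e-05).

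Pyhin1 and Ifi203 showed no step at 1 hr in BALBc/J and a large one at 4 hr. Pyhin1, also named Ifix, had 31.7, 31.3 and 733 tags per 10 M in BALBc/J and 51.8, 60.1 and 1666 in C57BL6/J. Its 4 hr change was 4.46 ± 0.21 (limma adjusted p = 3.92e-06). Ifi203 had 25.0, 22.1 and 266 in BALBc/J and 7.07, 17.6 and 442 in C57BL6/J. The strains changed places: BALBc/J was higher without treatment, by 3.53-fold in tags (1.85 to 7.31), and lower at 4 hr, at 0.603-fold (0.538 to 0.675). The fitted 4 hr change of Ifi203 was 3.85 ± 0.36 (limma adjusted p = 9.53e-05).

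Ifi202b, whose product lacks the pyrin domain, had 829, 1238 and 9248 tags per 10 M in BALBc/J, against 8.25, 12.8 and 22.2 in C57BL6/J. No BALBc/J library came near a C57BL6/J one. After 4 hr the tags were 11.2-fold those without treatment in BALBc/J (10.6 to 11.8) and 2.69-fold in C57BL6/J (1.45 to 5.31). The fitted change, 2.14 ± 0.55 (limma adjusted p = 0.0117), averages these strains, and without the BALBc/J library at 4 hr it was 0.88 and no longer called.

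**Figure D1:**
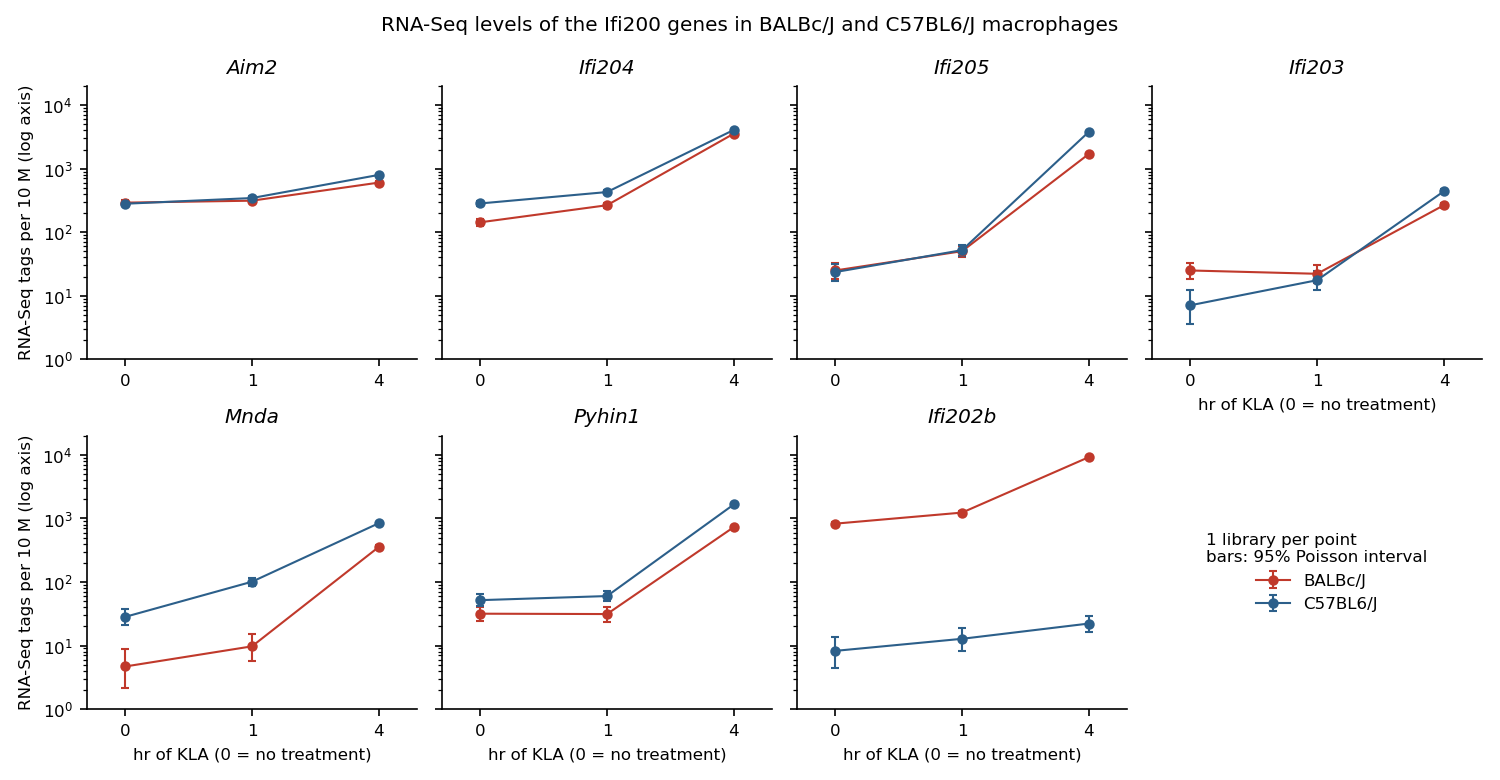
RNA-Seq level of each Ifi200 gene in exon tags per 10 M tags (log axis) against hr of KLA, with BALBc/J in red and C57BL6/J in blue; each point is 1 library and bars are 95% Poisson intervals. Ifi202b reaches 9248 in BALBc/J and 22.2 in C57BL6/J at 4 hr, and for the other 6 genes the strains lie within one order of magnitude at that time.

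Most of the change fell between 1 and 4 hr. At 1 hr none of the 7 genes was called, where 1.82% of all genes were called higher and 1.43% lower, and 3 of the 7 (Ifi204, Ifi205 and Mnda) had an unadjusted p under 0.05, as did 23.1% of all genes. The largest 1 hr changes were those of Mnda (0.98 ± 0.31, limma adjusted p = 0.121) and Ifi205 (0.84 ± 0.30, limma adjusted p = 0.156). With libraries centred on the median gene, which itself moved by -0.21, Mnda was called at 1.20 (limma adjusted p = 0.0480). Without centring it ran from 0.38 to 1.58 when single libraries were left out. Between 4 hr and 1 hr all 7 were higher, against 8.67% of all genes, by 1.06 ± 0.19 for Aim2 and by 5.39 ± 0.30 for Ifi205. In that comparison Ifi202b (1.70 ± 0.55, limma adjusted p = 0.0373) and Aim2 were no longer called with a pseudocount of 50, nor was Ifi202b without a filter on low values, and leaving out the 4 hr library of BALBc/J ended the call of Ifi202b at 0.44 and that of C57BL6/J ended the call of Aim2 at 0.88. Among T and NK cell markers the kinase gene Lck, which passed the filter only through its 4 hr libraries, was at 234.1 in BALBc/J and 186 in C57BL6/J at 4 hr, while Cd3e was at 0 in both 4 hr libraries. All 6 T and NK markers are in the table and summed to 20.8, 15.7 and 241 over the 3 times in BALBc/J and to 8.83, 9.58 and 188 in C57BL6/J. Ccr7 of the dendritic cell list (1.70 ± 0.21) and S100a8 of the neutrophil list (1.08 ± 0.20) were called higher at 4 hr too, and Cpa3 of the mast cell list lower. Of the 6 macrophage markers Cd14 was called higher (2.87 ± 0.20) and the others were not called, with Csf1r at -0.78 ± 0.16, Itgam at -0.55 ± 0.24, Lyz2 at -0.53 ± 0.16, Cd68 at -0.01 ± 0.18 and Emr1 at 0.25 ± 0.18. The part of these markers in the result was not tested.

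Set on a common scale of tags per 10 M and per kb of transcript, the order of the genes differed between the strains. At 4 hr in BALBc/J it was Ifi202b (5149), Ifi204 (1551), Ifi205 (1058), Aim2 (237.8), Mnda (216), Pyhin1 (209.7) and Ifi203 (73.4). The counting intervals of Aim2 and Mnda overlapped, and so did those of Mnda and Pyhin1, so these neighbours in the order do not differ beyond counting error, while those of Aim2 and Pyhin1 did not overlap. At 4 hr in C57BL6/J it was Ifi205 (2362), Ifi204 (1776), Mnda (510.5), Pyhin1 (476.3), Aim2 (314), Ifi203 (121.7) and Ifi202b (12.4), and the intervals of Mnda and Pyhin1 overlapped. Without treatment Ifi202b (461.6), Aim2 (115.0) and Ifi204 (62.3) led in BALBc/J. In C57BL6/J Ifi204 (123.4) and Aim2 (110.5) led with overlapping intervals, and Ifi202b stood at 4.59.

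Between the strains, Ifi202b was higher in BALBc/J and Mnda lower, and the other 5 genes were not called. Over all genes 2.52% were called higher in BALBc/J and 1.19% lower. The fitted difference of Ifi202b was 6.49 ± 0.45 on the log2 scale, higher in BALBc/J at 3 of 3 times. It passed the filter on low values through BALBc/J, since of the C57BL6/J libraries only that at 4 hr reached 20 tags per 10 M, so the p is given from the fit without a filter (limma adjusted p = 0.00396). In tags the ratio of BALBc/J over C57BL6/J was 100.6-fold without treatment (95% counting interval 59.8 to 184), 97.0-fold at 1 hr and 416-fold at 4 hr (311 to 571). Mnda differed by -1.70 ± 0.25 (limma adjusted p = 0.00619), lower in BALBc/J at 3 of 3 times, at 0.423-fold after 4 hr (0.385 to 0.464). This call was lost with a pseudocount of 50, at -0.997 (limma adjusted p = 0.0108), just short of the size needed. The mesothelial and fibroblast markers Upk3b (1.38 ± 0.16) and Col1a1 (1.21 ± 0.26) were also called higher in BALBc/J, and their part in these differences was not tested.

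Pyhin1 was lower in BALBc/J by 0.83 ± 0.17 on the log2 scale (log2 difference -0.83, limma adjusted p = 0.0238), below the size needed for a call. Ifi204 differed by -0.60 ± 0.17 (limma adjusted p = 0.0810), Ifi205 by -0.38 ± 0.24, Aim2 by -0.16 ± 0.15 and Ifi203 by 0.18 ± 0.30. These averages hide the times. At 4 hr the log2 difference was -1.15 for Ifi205 and -1.17 for Pyhin1, against 0.06 and -0.57 without treatment. For Ifi203 it was -0.71 at 4 hr, against 1.03 without treatment.

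Whether the response itself differed between the strains was not tested, since 1 library per strain and time leaves no residual. The log2 response to 4 hr of KLA was 3.46 in BALBc/J and 0.82 in C57BL6/J for Ifi202b. It was 2.98 and 4.73 for Ifi203, and 5.62 and 6.83 for Ifi205. For the other 4 the responses lay closer, at 4.54 in BALBc/J and 3.80 in C57BL6/J for Ifi204 and 4.64 and 4.48 for Mnda. They were 4.15 and 4.76 for Pyhin1, and 1.02 and 1.48 for Aim2. How far genes outside the family differ was not worked out, so no share of all genes stands beside these values. On this scale of log2(tags per 10 M + 10) the response of low genes is understated. For Mnda even the sign of the difference, BALBc/J minus C57BL6/J, depended on the pseudocount. It was 0.16 with 10, 0.94 with 2 and -0.62 with 50. In tags the 4 hr ratio of Mnda was 76.2-fold in BALBc/J (39.9 to 167.4) and 29.8-fold in C57BL6/J (22.4 to 40.6).

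**Figure D2:**
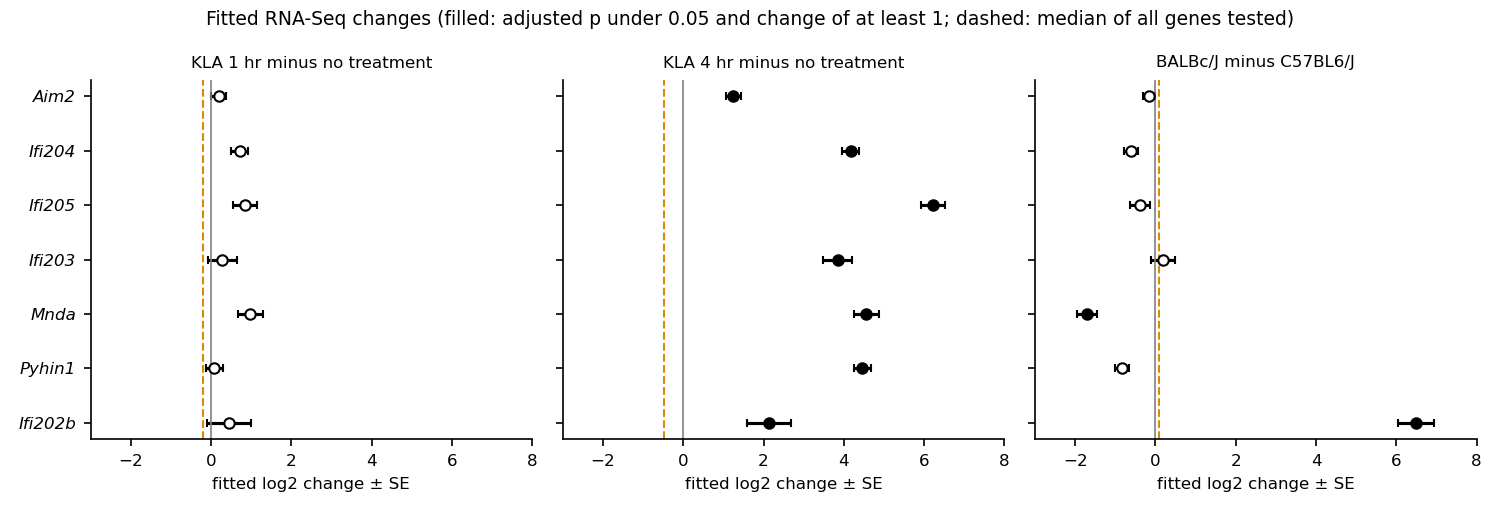
Fitted RNA-Seq changes on the log2 scale with standard errors for KLA 1 hr and 4 hr against no treatment and for BALBc/J minus C57BL6/J; filled points passed the test and the dashed line is the median of all genes tested. All 7 genes are filled at 4 hr, none at 1 hr, and in the strain panel Ifi202b lies at 6.49 and Mnda at -1.70.

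GRO-Seq showed Ifi202b being transcribed in BALBc/J and little of it in C57BL6/J. Ifi202b had 71.2 tags per 10 M in BALBc/J after KLA and 23.0 without treatment, against 3.60 and 0.254 in C57BL6/J, where the last is 1 tag. Only Ifi202b and Aim2 passed the filter on low values, Ifi202b through its BALBc/J libraries alone, so it could enter only by differing. The fitted strain difference of Ifi202b was 2.13 ± 0.23, given here without a p for that reason, where 0.494% of 9110 genes were called higher and 0.417% lower. Without a filter on low values the difference was called (limma adjusted p = 4.33e-11), and with 1 residual degree of freedom this p rests on the spread pooled over all genes. The call ended with a pseudocount of 50, at 0.86, and without the treatment term. In tags the ratio of BALBc/J over C57BL6/J was 19.8-fold after KLA (11.8 to 35.8) and 90.4-fold without treatment (15.9 to 3604).

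After 1 hr of KLA neither of these genes was called in GRO-Seq, where 4.31% of genes were called higher and 15.5% lower. Aim2 had 34.6 tags per 10 M after KLA and 49.3 without treatment in BALBc/J, and 51.2 and 57.9 in C57BL6/J, a fitted change of -0.28 ± 0.36 (limma adjusted p = 0.622). With libraries centred on the median gene, which itself moved by -0.34, the value was 0.07, so its direction turned. Ifi202b changed by 0.85 ± 0.23 (limma adjusted p = 0.00139), short of the size needed. Its unadjusted p was under 0.05 and that of Aim2 was not, where 37.6% of all genes tested had one under 0.05. Centred on the median gene it was called at 1.21, and with a pseudocount of 2 at 1.43. In BALBc/J its tags were 3.10-fold those without treatment (2.48 to 3.89).

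The other 5 genes were too low in nascent RNA for the filter. Ifi205 had 15.6 tags per 10 M after KLA and 0.414 without treatment in BALBc/J, and 26.7 and 0.254 in C57BL6/J, where the untreated values are 2 and 1 tags. Its nascent RNA thus stood above no treatment in both strains at 1 hr, and without a filter it was called at 1.57 ± 0.19 (limma adjusted p = 6.86e-14). With 1 residual degree of freedom this p too rests on the spread pooled over all genes. Ifi204 had 19.8 after KLA and 5.80 without treatment in BALBc/J, and 18.7 and 9.65 in C57BL6/J, a tag ratio of 3.41 (2.19 to 5.45) in BALBc/J and of 1.94 (1.30 to 2.94) in C57BL6/J. Ifi203 had 3.71 and 4.97 in BALBc/J, and 20.4 and 1.78 in C57BL6/J. Its ratio of KLA over no treatment was 0.746 (0.364 to 1.48) in BALBc/J, within counting error of no change, and 11.5 (5.34 to 29.4) in C57BL6/J. Mnda had 0.494 and 0 in BALBc/J, or 2 tags and none, and 6.97 and 0.508 in C57BL6/J. Pyhin1 stayed between 4.57 and 6.01 in all 4 libraries, with overlapping intervals.

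**Figure D3:**
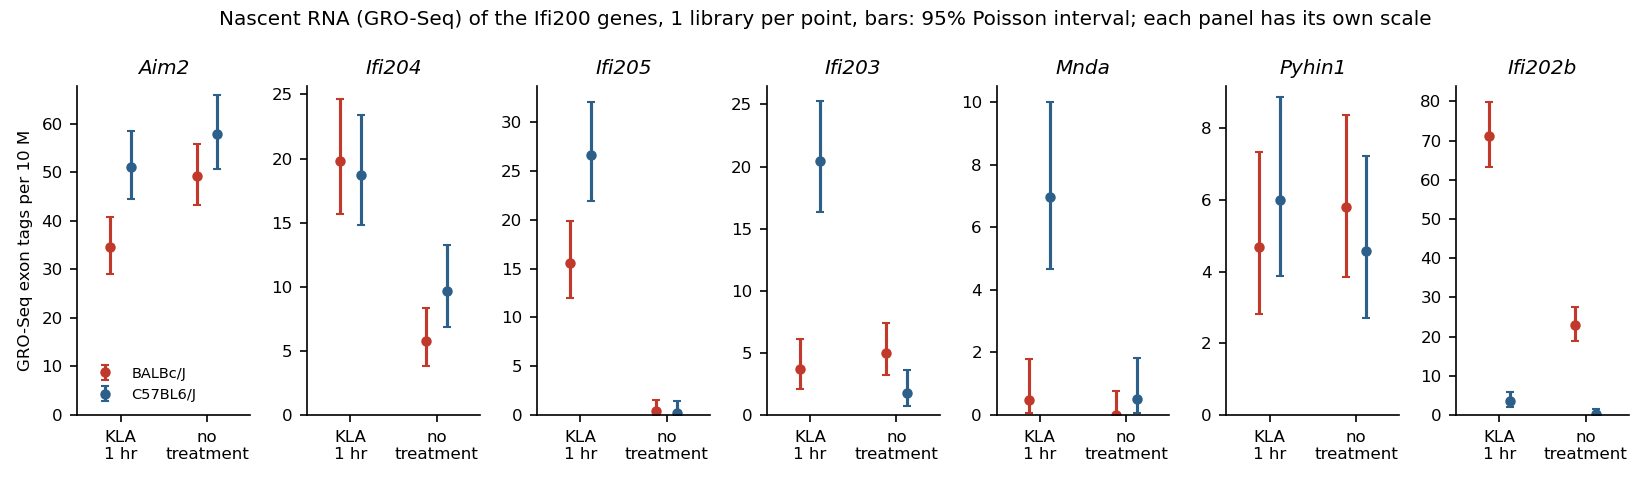
GRO-Seq exon tags per 10 M of each Ifi200 gene after 1 hr of KLA and without treatment, with BALBc/J in red and C57BL6/J in blue; each point is 1 library, bars are 95% Poisson intervals, and each panel has its own scale. Ifi202b is at 71.2 in BALBc/J and 3.60 in C57BL6/J after KLA, and Ifi203 is at 3.71 in BALBc/J and 20.4 in C57BL6/J.

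The Aim2 start carried PU.1, p65, H3K4me2 and H3K27Ac in every list of each that was made. PU.1, the lineage factor that primes macrophage enhancers, had a peak in the site at -93 bp from the mm9 start, with 165.1 tags per 10 M after KLA and 141.0 without treatment in BALBc/J, and 141.8 and 138.3 in C57BL6/J. The PU.1 motif printed above lies in that promoter, with its distance taken from the RefSeq start. An H3K4me2 region over the start held 2057.7 after KLA and 1994.1 without treatment in BALBc/J, and 1941.1 and 2063.1 in C57BL6/J. H3K27Ac, a mark of active elements, was listed there at 165.2 and 215.3 in BALBc/J and at 111.4 and 119.2 in C57BL6/J. All these tag values are the authors' own for each peak, given only where a peak was called. Positions are centres of merged sites, in which factor peaks of any list were chained over gaps of up to 200 bp between centres, unless a position is given for a single peak.

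Over the family, peaks within 1000 bp of a start were found in at least 1 list for 4 of the 7 genes for PU.1 (50.3% of all genes), 5 for C/EBPa (41.3%), 6 for p65 (41.6%), 7 for H3K4me2 (62.4%) and 2 for H3K27Ac (49.6%). Ifi202b was the gene with no p65 peak there, and Aim2 and Ifi205 were the pair with H3K27Ac. With 7 genes these shares are descriptions. By list, H3K4me2 lay at 6 of the 7 starts in BALBc/J after KLA and at 6 without treatment, against 3 and 4 in C57BL6/J, where 59.6 to 60.4% of all genes had a region in any one list. Ifi202b, Ifi204 and Mnda had it in both BALBc/J lists and in neither C57BL6/J list. For Ifi204 this rests on the limit of 1000 bp: after KLA a C57BL6/J region with 34.7 tags per 10 M lay 1037 bp from the start, against one with 39.4 within the limit in BALBc/J.

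Of 80 distinct factor sites within 50 kb of the starts, merged over PU.1, C/EBPa and p65, 19 were listed in BALBc/J only, 11 in C57BL6/J only and 50 in both strains. Merged in the same way over the whole lists, 15.7% of all sites were in BALBc/J only and 14.1% in C57BL6/J only. Among sites found in at least 2 lists, 10 were in BALBc/J only, 2 in C57BL6/J only and 50 in both, against 5.29% and 4.97% in 1 strain only over the whole lists. List by list, 30.1% of the p65 peaks of BALBc/J near these genes had no partner in C57BL6/J (22 of 73), against 14.7% over its whole lists. For H3K4me2 this was 36.2% (21 of 58) against 14.0%, for H3K27Ac 38.5% (10 of 26) against 19.4%, for PU.1 25.4% (18 of 71) against 23.4% and for C/EBPa 32.7% (16 of 49) against 29.6%. In the other direction, the share of C57BL6/J sites with no BALBc/J partner was 12 of 63 for p65 (26.2% over its whole lists), 13.6% for H3K4me2 (6 of 44, against 11.9%), 4 of 21 for H3K27Ac (19.1% over its whole lists), 13.1% for PU.1 (8 of 61, against 20.6%) and 15.4% for C/EBPa (6 of 39, against 22.0%).

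Sites listed after KLA only were close to the share of the whole list for PU.1 and C/EBPa in BALBc/J. For C/EBPa, 35.7% of the BALBc/J sites after KLA (10 of 28) had no partner without treatment, against 32.0% over the whole list, and 48.0% of those in C57BL6/J (12 of 25), against 38.3%. The reverse, sites listed without treatment only, came to 3 of 21 in BALBc/J, against 32.2% over the whole list, and to 1 of 14 in C57BL6/J, against 28.1%. PU.1 sites after KLA only came to 8 of 38 in BALBc/J (whole list 24.4%) and 9 of 32 in C57BL6/J (25.3%), and those without treatment only to 3 of 33 (23.3%) and 6 of 29 (22.8%). H3K27Ac regions after KLA only came to 5 of 13 in BALBc/J (23.2%) and 7 of 13 in C57BL6/J (24.7%), and those without treatment only to 5 of 13 (27.8%) and 3 of 8 (29.9%). H3K4me2 regions after KLA only came to 8 of 31 in BALBc/J (9.24%) and 2 of 21 in C57BL6/J (6.88%), and those without treatment only to 3 of 27 (8.35%) and 4 of 23 (10.4%). A missing peak may lie just under the calling threshold, and for p65 the input of C57BL6/J also served as the control for both BALBc/J lists.

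Some of the sites listed in BALBc/J only lay in and behind Ifi202b. One was 9.5 kb inside the gene (9513 bp after the start), with PU.1 at 63.5 tags per 10 M after KLA and 110.3 without treatment in BALBc/J and no peak in C57BL6/J. Another, 20010 bp after the start at the end of the transcript, had p65 at 145.0 and 80.6 in the 2 BALBc/J replicates and C/EBPa at 69.1 after KLA and 15.8 without treatment, and no factor peak in C57BL6/J. H3K27Ac was listed over this second site after KLA in both strains, at 67.9 in BALBc/J and 16.1 in C57BL6/J. Without treatment it was listed there in BALBc/J only, at 47.8. The first had an H3K4me2 region in BALBc/J only, at 109.0 after KLA and 102.7 without treatment. A PU.1 site 5023 bp after the start was present in both strains, at 146.0 after KLA and 148.6 without treatment in BALBc/J and at 66.0 and 59.5 in C57BL6/J. Within 1000 bp of the start no list held a factor peak, and H3K4me2 had a small region there in BALBc/J only, at 18.2 after KLA and 32.7 without treatment.

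The strongest site of this stretch lay between the end of Ifi202b and the start of Ifi203, at -12790 bp from the Ifi203 start, where minus marks upstream. p65 was at 542.1 and 340.1 tags per 10 M in the BALBc/J replicates, against 210.9 and 147.7 in C57BL6/J. C/EBPa was at 247.6 after KLA and 73.6 without treatment in BALBc/J, against 41.9 and no peak in C57BL6/J. PU.1 was at 92.1 and 21.5 in BALBc/J, against 28.0 and no peak in C57BL6/J. The Ifi203 start showed the other order: C/EBPa (41.9 after KLA) and p65 (29.2 and 17.4) had peaks in the site at -119 bp in C57BL6/J and none in BALBc/J. H3K4me2 was listed over that start at 36.4 in C57BL6/J without treatment only.

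**Figure D4:**
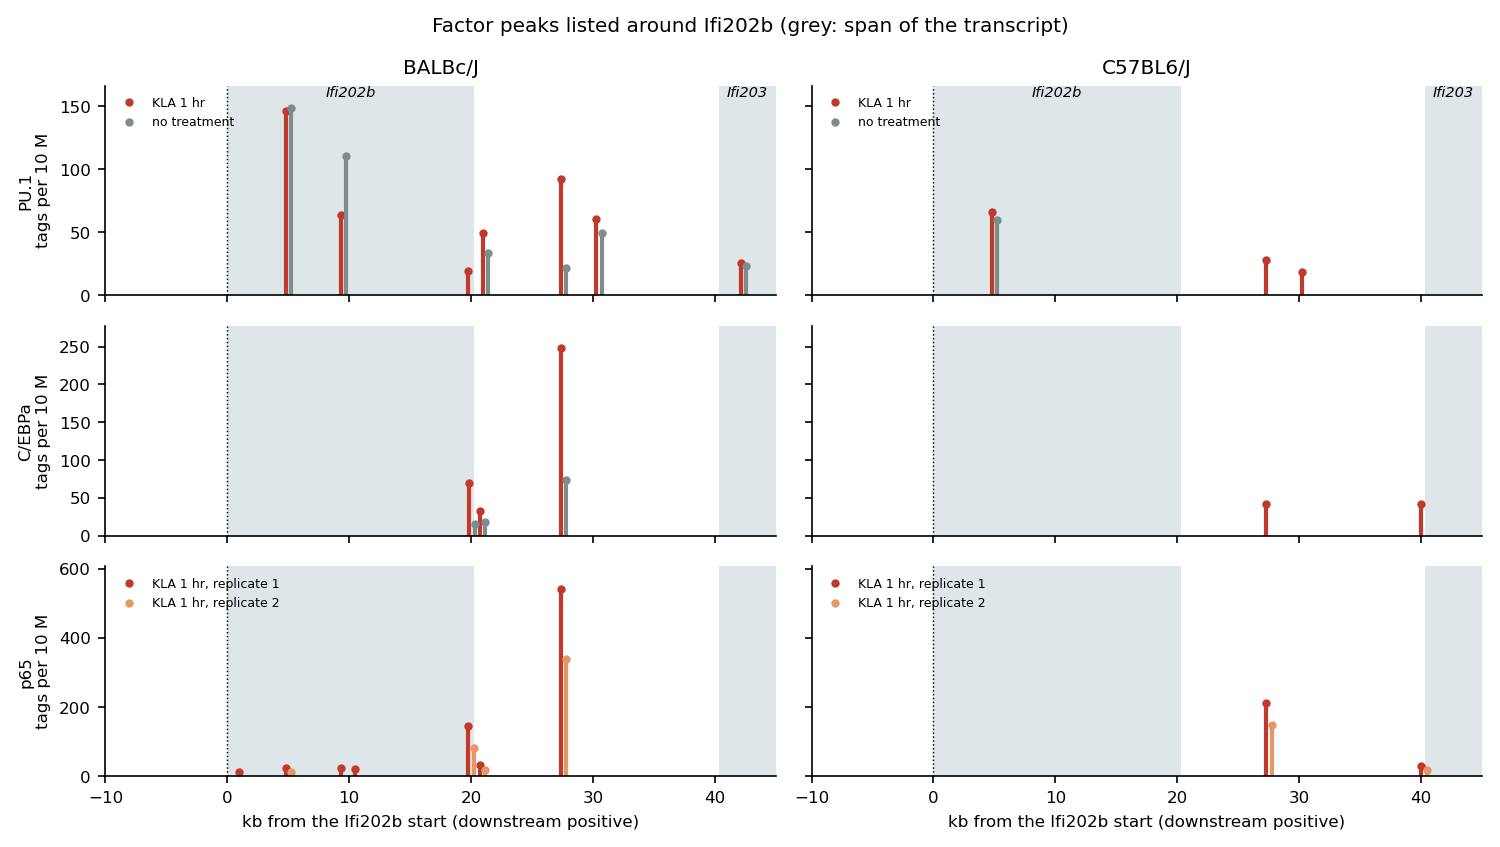
Tags per 10 M of PU.1, C/EBPa and p65 peaks against distance in kb from the Ifi202b start, from 10 kb upstream to 45 kb downstream, in BALBc/J (left) and C57BL6/J (right); each stem is a listed peak and grey marks the transcripts. BALBc/J has PU.1 at 9.5 kb and p65 at 20 kb where C57BL6/J has no peak, and p65 near 27 kb reaches 542.1 in BALBc/J and 210.9 in C57BL6/J.

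Upstream of Ifi205, the gene that rose most, most sites were listed in both strains. The strongest p65 peak near any of the 7 starts lay between -21354 and -21370 bp in the 4 lists, in the merged site at -21521 bp, with 1080.3 and 1081.5 tags per 10 M in BALBc/J, against 1175.4 and 1481.4 in C57BL6/J. C/EBPa there was at 253.4 after KLA and 138.5 without treatment in BALBc/J, and at 219.2 and 154.3 in C57BL6/J. A site at -9170 bp had p65 at 287.1 and 258.7 in BALBc/J and at 561.6 and 633.3 in C57BL6/J, so that both C57BL6/J replicates were the higher ones. C/EBPa at -6920 bp had the other order, at 274.5 after KLA and 159.6 without treatment in BALBc/J and at 175.4 and 38.1 in C57BL6/J. p65 there was at 236.1 and 118.5 in BALBc/J and at 235.2 and 170.6 in C57BL6/J. A p65 site at -11812 bp was listed in both BALBc/J replicates (113.0 and 92.7) and in 1 of C57BL6/J (172.1). At the start itself p65 was at 29.0 and 33.8 in BALBc/J, against 94.6 and 100.3 in C57BL6/J, and C/EBPa after KLA was at 13.4 in BALBc/J, against 61.0 in C57BL6/J. A p65 peak at -17238 bp was listed in both C57BL6/J replicates (300.6 and 222.7) and in no BALBc/J one, while C/EBPa (140.1 in BALBc/J and 156.3 in C57BL6/J) and PU.1 (42.9 and 59.4) were listed there after KLA in both strains. Of the 14 factor sites nearest to Ifi205 among the 7 starts, 13 were found in both strains and 1 in C57BL6/J only. Over the whole lists 15.7% of merged sites were in BALBc/J only and 14.1% in C57BL6/J only.

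After 1 hr of KLA this upstream stretch carried a broad H3K27Ac region. In BALBc/J it was 21361 bp long with 1426.8 tags per 10 M, and in C57BL6/J one of 17225 bp with 1483.7 lay beside another of 4005 bp with 217.0. Without treatment BALBc/J had a region of 1472 bp with 63.8 there and C57BL6/J had none. Over the Ifi205 start, H3K27Ac was at 128.1 in BALBc/J and 130.5 in C57BL6/J after KLA, and was listed in neither strain without treatment. Such regions were stitched to variable length by the authors, so tags follow length.

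**Figure D5:**
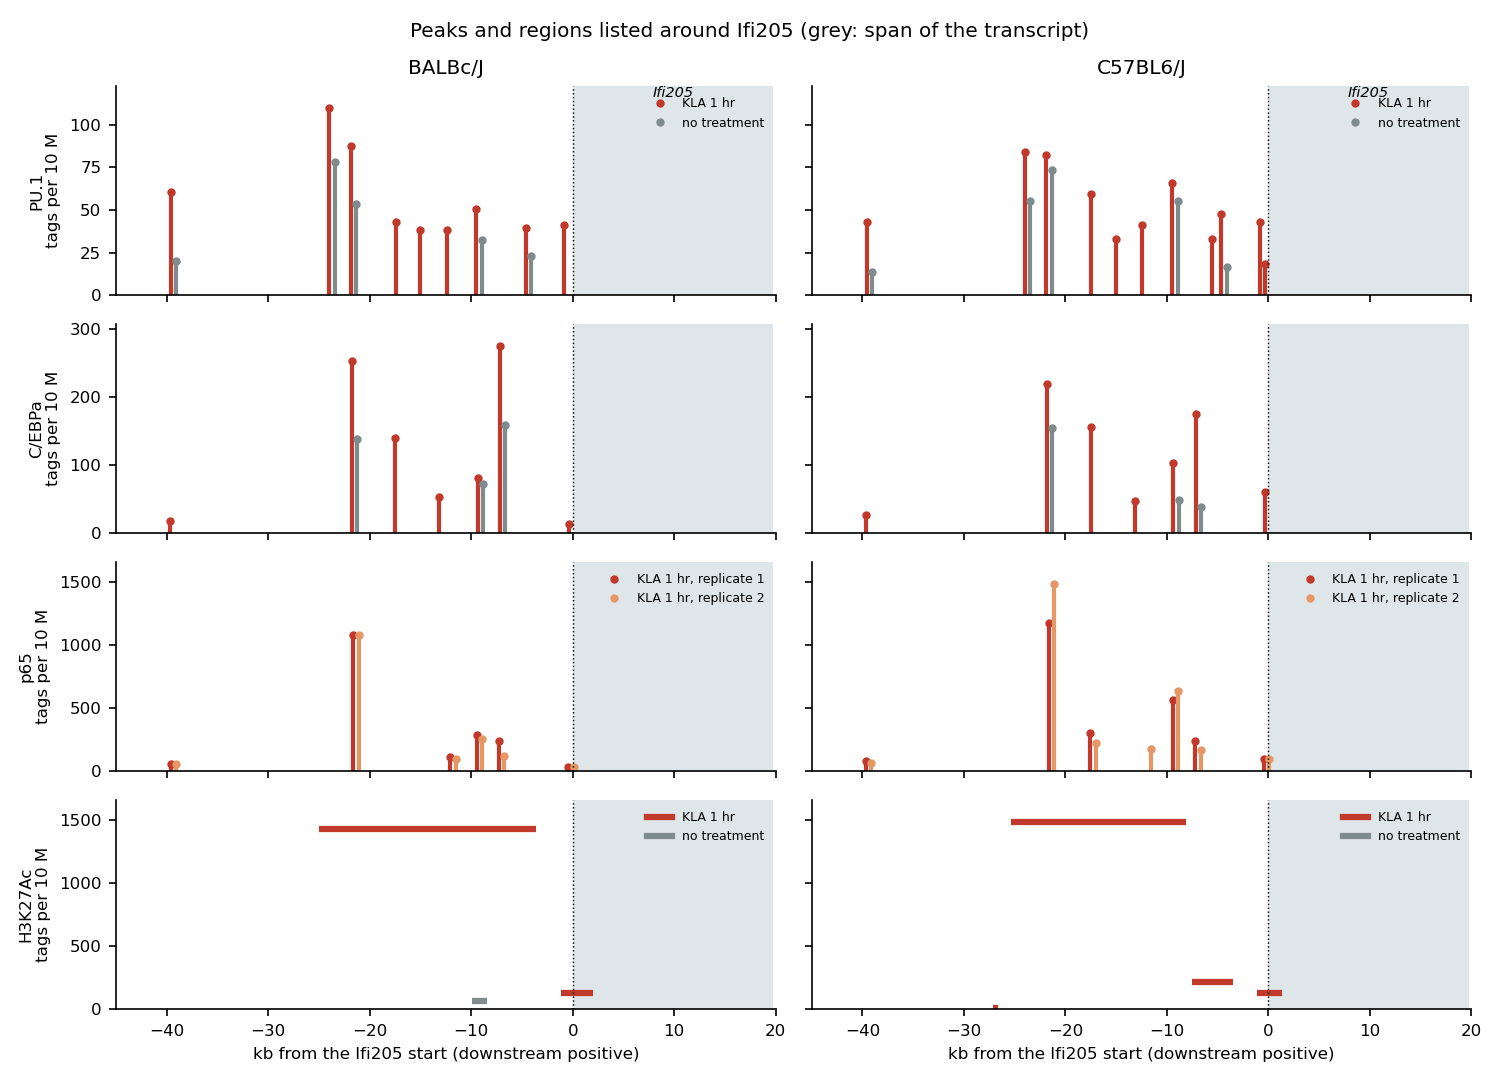
Tags per 10 M of PU.1, C/EBPa and p65 peaks (stems) and H3K27Ac regions (bars drawn to their length) against distance in kb from the Ifi205 start, in BALBc/J (left) and C57BL6/J (right). The broad H3K27Ac bars after KLA, at 1426.8 in BALBc/J and 1483.7 in C57BL6/J, cover the strongest p65 peak.

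At the Ifi204 start the C/EBPa and p65 peaks were listed in both strains, with more tags in BALBc/J. C/EBPa had a peak at the merged site at -112 bp, with 61.4 after KLA and 52.6 without treatment in BALBc/J, and with 26.7 and 40.1 in C57BL6/J. p65 had one with 40.0 and 27.4 in BALBc/J and with 20.2 and 11.1 in C57BL6/J. Of the 12 factor sites nearest to Ifi204 among the members, 9 were in both strains, 1 in BALBc/J only and 2 in C57BL6/J only. Among all merged sites of the whole lists, 15.7% were in BALBc/J only and 14.1% in C57BL6/J only. Those of the 12 from 23550 to 29749 bp after the Ifi204 start lie around the start of AI607873, which is not a member. At Mnda the peaks near the start were few: C/EBPa was listed in BALBc/J only, at -36 bp with 26.9 after KLA and at -81 bp with 24.5 without treatment, and Mnda RNA was the lower in BALBc/J. p65 in the same merged site was listed in 1 BALBc/J replicate at 22.0 and in both C57BL6/J replicates at 15.3 and 18.2. Pyhin1 had PU.1 at -56 bp, with 33.3 after KLA and none without treatment in BALBc/J, and with 24.7 and 30.4 in C57BL6/J, with no C/EBPa peak within 1000 bp in any list.

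Other genes of the pathway moved with the family at 4 hr in part. The lists were chosen with earlier results of these data known. Of the other Pyhin relatives, 3 of 14 listed names could be tested. Mndal rose by 4.15 ± 0.25 on the log2 scale and AI607873 by 2.02 ± 0.23, while Pydc3 passed the filter only through its 4 hr libraries and is given by its levels, 34.5 tags per 10 M in BALBc/J and 44.9 in C57BL6/J at 4 hr and 0 before. Of 14 tested genes of cytosolic DNA sensing, 5 rose and 2 fell, where 8.10% of all genes were called higher and 21.3% lower. Trex1, the exonuclease that clears cytosolic DNA, rose by 5.04 ± 0.25, Zbp1 by 4.78 ± 0.18 and Samhd1, a dNTP hydrolase, by 1.69 ± 0.17, while Dnase2a, the lysosomal DNase, fell by 1.42 and Xrcc6, a subunit of Ku, fell by 1.10. Tmem173, which encodes STING, was at 0.60 ± 0.21 and was not called.

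Of the 8 inflammasome partners 6 rose at 4 hr, where 8.10% of all genes were called higher and 21.3% lower. Il1b, the interleukin cut by the inflammasome, rose by 7.07 ± 0.25, Casp1, the protease that cuts it, by 1.60 ± 0.17, and Gsdmd, the pore former, by 1.23 ± 0.18, while Pycard, which encodes ASC, was at -0.08 ± 0.17. Of 11 interferon signalling genes 8 rose, among them Irf1 (4.29 ± 0.23), Irf7 (4.19 ± 0.32) and Stat2 (3.78 ± 0.17). Ifnb1, also counted among the 8, passed the filter only through KLA libraries, so it could be tested only by rising. It had 0.52, 596.2 and 16.1 tags per 10 M over the 3 times in BALBc/J, and 1.18, 227.7 and 24.2 in C57BL6/J. At 1 hr 3 inflammasome partners, 2 interferon signalling genes and 1 DNA sensing gene had risen, where 1.82% of all genes were called higher. Between the strains 1 gene of these 4 lists was called, Irf7, higher in BALBc/J by 1.03 ± 0.26 (limma adjusted p = 0.0484), where 2.52% of all genes were called higher.

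The genes whose RNA-Seq profile over the 6 libraries was most like that of each member were found as those with the smallest root mean square (RMS) log2 difference after centring each gene on its own mean. For Ifi205 it was Il27, a subunit of interleukin 27, at 0.11. For Aim2 it was Psme2, a proteasome activator subunit, at 0.07. For Ifi203 it was the NAD-consuming ectoenzyme gene Cd38 at 0.22, with Mndal, a relative in the same cluster, next at 0.26. For Ifi204 it was the collagenase gene Mmp13 at 0.23, for Pyhin1 it was Oasl2 at 0.26, and for Mnda it was Trim30d at 0.62. Ifi202b had no close match: its nearest genes were H28 at 1.03 and Gbp1 at 1.20, which shared the higher level in BALBc/J. Gbp1 had 127, 236.5 and 9011 tags per 10 M over the 3 times in BALBc/J, and 14.1, 12.2 and 18.8 in C57BL6/J.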

How the data were processed

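The submitters' processing notes name Bowtie 0.12.7 for alignment, HOMER and the mm9 build. The authors deposited expression as log2 of exon tags plus 1, scaled to 10 M tags a library, with a random part under 1 tag, per the file headers; whole tags were recovered by rounding down. Peak tags were deposited as signal per 10 M for each peak, called in each sample alone; per the file headers, p65 of either strain was set against input from C57BL6/J. Of the 40 samples, 30 were used; those of the NOD/ShiLtJ strain, the CB6F1/J F1 Hybrids and the inputs were not analysed here.

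Tests used limma 3.58.1 in R 4.3.3 on log2(tags per 10 M + 10) with additive terms for treatment and strain, eBayes with a trend and Benjamini-Hochberg adjustment over all genes with at least 20 tags per 10 M in 2 libraries. RNA-Seq had 2 and GRO-Seq 1 residual degrees of freedom. The code was tested on simulated data, where 200 of 200 changed genes were recovered among 10470 in the 4 hr comparison. The simulation held no difference between strains and only large changes in genes that were not low. It therefore does not show how calls behave where the strains respond differently. Counts of tags were compared with exact binomial intervals. Sites of 2 strains matched when peak centres lay within 100 bp or regions overlapped. Alternatives were the pseudocount, the filter, centring, the transcript, genomic copies, the block term, peak strength, distance and each library left out. Members, lists, motifs and tests were chosen with earlier results of these data known. All 7 members, the genes of the lists, the 3 most alike genes of each member and the neighbours were open to naming.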

Additional observations from a re-analysis of the deposited data

Results flagged for a closer look

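Some results went opposite ways in the 2 strains or reversed their strain order between KLA and no treatment. With 1 library per strain and treatment none of these differences was tested, and several rest on values within counting error. All values are on the scale of log2(tags per 10 M + 10), as the response in BALBc/J minus that in C57BL6/J.

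The responses had opposite signs in 4 cases. For Ifi203 the GRO-Seq response was -0.13 in BALBc/J and 1.37 in C57BL6/J, a difference of -1.50, and the 1 hr RNA-Seq response was -0.12 and 0.69, a difference of -0.81. For Pyhin1 the GRO-Seq response was -0.10 in BALBc/J and 0.14 in C57BL6/J, a difference of -0.24, and the 1 hr RNA-Seq response was -0.01 and 0.18, a difference of -0.20. The counting intervals of the Pyhin1 tags overlapped in all 4 GRO-Seq libraries.

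In the other 7 cases both strains responded in the same direction and the strain order reversed. At 4 hr of RNA-Seq the responses differed by -1.74 for Ifi203, -1.21 for Ifi205 and -0.45 for Aim2. At 1 hr of RNA-Seq they differed by -0.10 for Ifi205 and -0.19 for Aim2, and in GRO-Seq by -0.54 for Ifi205 and 0.37 for Ifi204.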

How the results depend on the processing

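Of 532 alternative values over 54 results, 490 kept their direction and their side of the threshold or their count. The 7 calls at 4 hr stood at 6 or 7 under every alternative. At 1 hr 1 gene was called with libraries centred on the median gene, and 0 to 1 when single libraries were left out. The strain calls in RNA-Seq, 2 in the report, were 1 with a pseudocount of 50 and 1 without the treatment term, Mnda being the call lost, and the 4 hr call of Ifi202b was lost without the strain term (adjusted p = 0.606). In GRO-Seq the KLA calls were 1 when libraries were centred, 1 with no filter on low values and 1 at a pseudocount of 2, and the strain calls were 0 with a pseudocount of 50, 0 with the filter at 50 tags and 0 without the treatment term. Aim2 in GRO-Seq turned to 0.071 when centred. Ifi203 between the strains turned to -0.049 with a pseudocount of 50. When single libraries were left out, the 1 hr changes ran from -0.35 to 0.92 for Ifi203, from -0.12 to 0.28 for Pyhin1 and from -0.28 to 1.17 for Ifi202b, and the strain differences from -0.24 to 0.63 for Ifi203 and from -0.60 to 0.0070 for Ifi205. Without 1 of the p65 replicates, p65 sites in 1 strain only numbered 8 to 14 in BALBc/J and 4 to 8 in C57BL6/J, since fewer lists were summed. PU.1 sites in C57BL6/J only were 4 with at least 20 tags per 10 M. Where no value shows it, the cause was not tested. Leaving out a GRO-Seq library left no residual, so those fits were not run. No paired analysis was possible because replicate numbers are shared only by the p65 lists, whose results come from no test.

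Depth limited the low members: Mnda without treatment rests on 9 tags in BALBc/J, and nascent RNA of 5 members lay under the filter.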

Other observations

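Between the members lie genes that are not among the 7 and show patterns of their own. Pydc4, a pyrin-domain relative upstream of Pyhin1, had 0.52, 1.08 and 0.575 RNA-Seq tags per 10 M over the 3 times in BALBc/J, and 1.77, 0.532 and 128.8 in C57BL6/J. Pydc3 behind Pyhin1 reached 34.5 in BALBc/J and 44.9 in C57BL6/J at 4 hr and was at 0 at both earlier times in both strains. BC094916 reached 57.5 in BALBc/J and 18.8 in C57BL6/J at 4 hr. AI607873 was already at 715 without treatment in BALBc/J and 759 in C57BL6/J, and at 3244 and 2811 at 4 hr.

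The broad H3K27Ac stretch upstream of Ifi205 covers the starts of the olfactory receptor genes Olfr433 and Olfr432. Olfr433 had 6.43 GRO-Seq exon tags per 10 M after KLA and 0.414 without treatment in BALBc/J, and 6.01 and 0.254 in C57BL6/J. Its RNA-Seq level at 4 hr was 3.45 in BALBc/J and 2.47 in C57BL6/J.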
